A study of Mus musculus with 22 samples.

Results

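The transcripts described here are 30 genes of cholinergic transmission: the enzymes, transporters, anchoring proteins and modulators of acetylcholine and its muscarinic and nicotinic receptor subunits. They were taken by symbol from a whole-brain mouse RNA-seq table of 56748 genes, and all 30 symbols were found. Of these, 26 had enough counts to be tested among 20026 genes, and 4 (Chrna9, Chrnd, Chrne and Chrng) did not. Members were chosen by symbol, with earlier results of these data known.

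Brains came from 22 male C57BL/6J mice, of which 16 had been exposed as young adults to chemicals that model Gulf War illness. At 10 weeks of age the exposed mice were injected daily for 10 days with 0.7 mg/kg pyridostigmine bromide, a reversible inhibitor of cholinesterases, together with 200 mg/kg permethrin, a pyrethroid insecticide whose target is the voltage-gated sodium channel. Control mice received vehicle. All were aged to 17.5 months and then given intraperitoneal cannabidiol (CBD, 30 mg/kg) or its vehicle, daily for 28 days and every 2 days for another 2 weeks, followed by 0.33 mg/kg lipopolysaccharide (LPS) or PBS 24 h before the brains were taken. CtrlVeh (3 libraries) had chemical vehicle, CBD vehicle and PBS, and CtrlVehLPS (3) differed by LPS. GWVeh (4) had the chemicals, CBD vehicle and PBS, and GWVehLPS (4) had LPS in addition. GWCBD30 (4) had the chemicals, CBD and PBS, and GWCBD30LPS (4) had the chemicals, CBD and LPS. CBD was given to exposed mice only in these libraries, so its effect without exposure was not measured. A whole brain pools every region, and in such bulk tissue fewer cells of a type and less RNA per cell cannot be told apart.

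Acetylcholine is made by choline acetyltransferase (Chat) from choline that the high-affinity transporter Slc5a7 brings into the nerve terminal, and the vesicular transporter Slc18a3 loads it into synaptic vesicles. After release it is hydrolysed by acetylcholinesterase (Ache), which Prima1 anchors to neuronal membranes and Colq to the basal lamina of the neuromuscular junction, and by butyrylcholinesterase (Bche), which in brain is largely glial. Muscarinic receptors (Chrm genes) signal through G proteins, and nicotinic receptors (Chrna and Chrnb genes) are pentameric ion channels. In brain most nicotinic receptors hold alpha and beta subunits of the neuronal kind, whereas the Chrna1, Chrnb1, Chrnd, Chrne and Chrng products form the receptor of skeletal muscle.

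The libraries held 17.2 M to 31.2 M counts each (median 21.6 M). Levels are given as CPM, which are counts relative to the scaled total of a library, and 3 counts, taken as the floor of detection, equalled 0.0975 to 0.176 CPM. The changes are log2 differences of fitted group means, and the tests are edgeR's quasi-likelihood tests with Benjamini-Hochberg adjustment over all 20026 genes, with a threshold of adjusted p 0.05. Genes that define brain tissue were high in every library (Snap25, a synaptic vesicle fusion protein, at 1954 to 2358 CPM, and Mbp, a myelin protein, at 2278 to 3809 CPM). CtrlVehLPS replicate 1 stood apart: its 16 brainstem and spinal neuron markers summed to 13.6 CPM against 57.9 to 146 CPM in the other libraries. Its 10 pancreatic acinar markers summed to 297 CPM, against 2.67 to 4.40 CPM in the other libraries. Regional content varied in other libraries too. The 4 serotonin neuron markers summed to 3.64 to 35.6 CPM over the 22 libraries. They were at 8.25 to 15.1 CPM in CtrlVeh and 19.7 to 34.1 CPM in CtrlVehLPS, without overlap. GWVeh replicate 4 was at 6.25 CPM and GWCBD30 replicate 4 at 3.64 CPM. These markers were not added to any model, and their part in the comparisons was not tested.

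Levels of the members spanned several orders of magnitude. Per kilobase of merged exons, Pebp1 was highest at a median of 177 CPM per kb over the 22 libraries. Its protein inhibits Raf kinase and is the precursor of a peptide that promotes acetylcholine synthesis in septal neurons. Lynx1, a membrane-tethered brake on nicotinic receptors, followed at 94.9 and Ache at 25.6 CPM per kb. Next came the muscarinic receptor genes Chrm1 at 18.5 and Chrm4 at 13.2, and the subunits of the main high-affinity nicotinic receptor of brain, Chrna4 at 11.3 and Chrnb2 at 11.04 CPM per kb. The exons of Chrnb2 overlap those of Adar on the other strand over 16.3% of their length, and the strand setting of the counting was not given in the sources used here, so its counts are uncertain. The library ranges of Pebp1 and Lynx1 did not overlap those of the genes ranked below them, nor did that of Chrnb2 overlap that of Chrm3, at 6.67 CPM per kb. All other neighbours in the order overlapped. Chrm4 and Chrm5 have single-exon models of 1440 and 1599 bases in the annotation, so their values per length rest on short models.

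By median, the genes that mark cholinergic neurons were lower than Ache. Slc18a3 was at a median of 2.52 CPM per kb, Slc5a7 at 1.96 and Chat at 1.04. Bche, at 0.980 CPM per kb, was well under Ache at 25.6 in the same unit. Chrna7, the subunit of the homomeric alpha-bungarotoxin-sensitive receptor, was at 2.86 CPM per kb. Among the subunits typical of the medial habenula and midbrain, Chrna6 was at 0.938, Chrna5 at 0.775, Chrna3 at 0.661, Chrnb4 at 0.584 and Chrnb3 at 0.455 CPM per kb, with ranges that overlapped their neighbours.

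**Figure D1:**
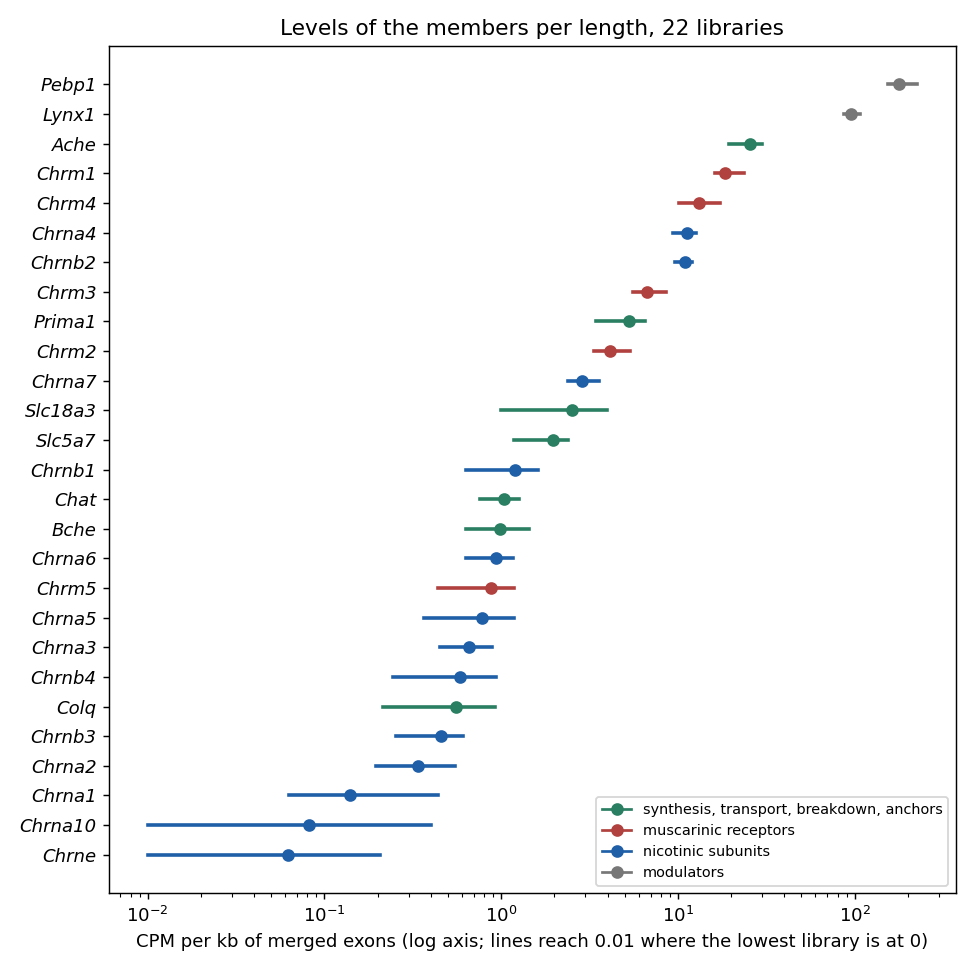
Each point is the median level of a member over 22 libraries in CPM per kb of merged exons on a log axis, and each line runs from the lowest to the highest library. Pebp1, Lynx1 and Ache lead the order, and Chrna1, Chrna10 and Chrne are at its end; Chrna9, Chrnd and Chrng, with a median of 0, are not drawn.

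Of the muscle-type subunits, Chrnb1, at 1.19 CPM per kb, and Chrna1, at 0.140 CPM per kb, were detected in all 22 libraries. Chrnd had 0 counts in all 22 libraries, which allows a level of up to 0.00609 CPM over the summed libraries, for counting error alone. Chrng had 1 count and Chrna9, a cochlear hair cell subunit, had 2. Chrne had 59 counts spread over 19 libraries. Skeletal muscle markers were also low, with a sum over the 12 genes of 16.97 to 23.6 CPM and Tnnc2 at 0 in most groups.

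Variation among libraries differed widely between members. The coefficient of variation over 22 libraries was 5.70% for Chrnb2, 6.35% for Lynx1 and 7.91% for Chrna4, and it was 29.8% for Slc18a3, 30.1% for Chrnb4, 31.9% for Chrna2 and 54.8% for Chrna1. Chrna1 was highest in CtrlVeh replicate 1, at 1.94 CPM, whereas the other CtrlVeh libraries were at 0.507 and 0.388 CPM. Next came GWVehLPS replicate 1, at 1.26 CPM. Chrna10, with 149 counts in all, had a coefficient of variation of 96.5%.

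The first comparison asked whether the chemical exposure, months earlier, had left a difference in the targets of pyridostigmine or in the receptors. No member passed the threshold in edgeR or in DESeq2, either without LPS (GWVeh against CtrlVeh, where 0% of all genes passed), under LPS (GWVehLPS against CtrlVehLPS, 0.00499% of all genes) or as the mean over both LPS states (0.03% of all genes). At an unadjusted p under 0.05, 3 of 26 members were found without LPS (8.8% of all genes), 4 under LPS (7.73%) and 3 in the mean (7.76%). The median log2 difference of the tested members was 0.06 in the mean over LPS states, against 0.01 for all genes.

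Ache, the main target of pyridostigmine, was at 105, 108 and 117 CPM in CtrlVeh and at 125, 138, 127 and 108 CPM in GWVeh. Under LPS it was at 94.3, 119 and 132 CPM in CtrlVehLPS and at 114, 123, 118 and 115 CPM in GWVehLPS. The groups overlapped in both states. Exposure gave a log2 difference of 0.11 ± 0.08 (SE) over both states, a change of 7.60% with a 95% interval from -4.42% to 21.1% (adjusted p = 0.758). Without LPS the log2 difference was 0.18 (adjusted p = 0.682), and under LPS it was 0.04 (adjusted p = 0.970), which became -0.09 without CtrlVehLPS replicate 1. Bche differed by -0.15 ± 0.13 on the log2 scale over both states (adjusted p = 0.778), by -0.10 without LPS (adjusted p = 0.901) and by -0.19 under LPS (adjusted p = 0.861). An interval of this width leaves room for a change of Bche from -24.5% to 8.18%.

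The members with the smallest p for exposure over both LPS states were Prima1, the membrane anchor of Ache in brain, Chrnb2 and Pebp1. Prima1 was at 4.90, 5.86 and 5.16 CPM in CtrlVeh and 7.58, 7.03, 4.93 and 6.69 CPM in GWVeh, a mean of 5.30 ± 0.496 (SD, n = 3) against 6.56 ± 1.14 (n = 4). Its log2 difference over both states was 0.32 ± 0.13 (adjusted p = 0.612), that of Chrnb2 was 0.10 ± 0.05 (adjusted p = 0.631) and that of Pebp1 was 0.12 ± 0.06 (adjusted p = 0.639). Without LPS, Pebp1 (log2 difference 0.18 ± 0.08, adjusted p = 0.552) was the member whose groups did not overlap, at 281 to 304 CPM in CtrlVeh and 312 to 359 CPM in GWVeh. Such separation was found for 9.4% of all genes in that comparison. Chrna2 (0.87 ± 0.35, adjusted p = 0.499) and Chrna4 (0.19 ± 0.08, adjusted p = 0.510) had the smallest p there, and each overlapped between groups.

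Under LPS, 3 members separated GWVehLPS from CtrlVehLPS without overlap, against 5.41% of all genes. Chrnb1 was at 2.92, 2.14 and 2.05 CPM in CtrlVehLPS and 3.81, 4.10, 3.17 and 3.10 CPM in GWVehLPS (log2 difference 0.57 ± 0.24, adjusted p = 0.566). Chrna7 was at 13.5 to 14.6 CPM in CtrlVehLPS and 12.01 to 13.1 CPM in GWVehLPS. Chrna10 was at 1.04, 0.563 and 1.05 CPM in CtrlVehLPS and 0, 0.0788, 0.460 and 0.320 CPM in GWVehLPS, from 0 to 10 counts a library in the latter (log2 difference -2.12 ± 0.77, adjusted p = 0.475). The exons of Chrna10 (chr7:102111266-102116828, minus strand, GRCm38) overlap those of Art1 on the other strand over 39.0% of their length, so its counts are uncertain like those of Chrnb2. With the scores of olfactory bulb and cerebellar markers added to the model, its log2 difference was -1.28 (adjusted p = 0.999). Chrm1 differed by -0.18 ± 0.08 (adjusted p = 0.553), by -0.07 without CtrlVehLPS replicate 1 and by -0.05 with those scores (adjusted p = 0.999 in both).

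**Figure D2:**
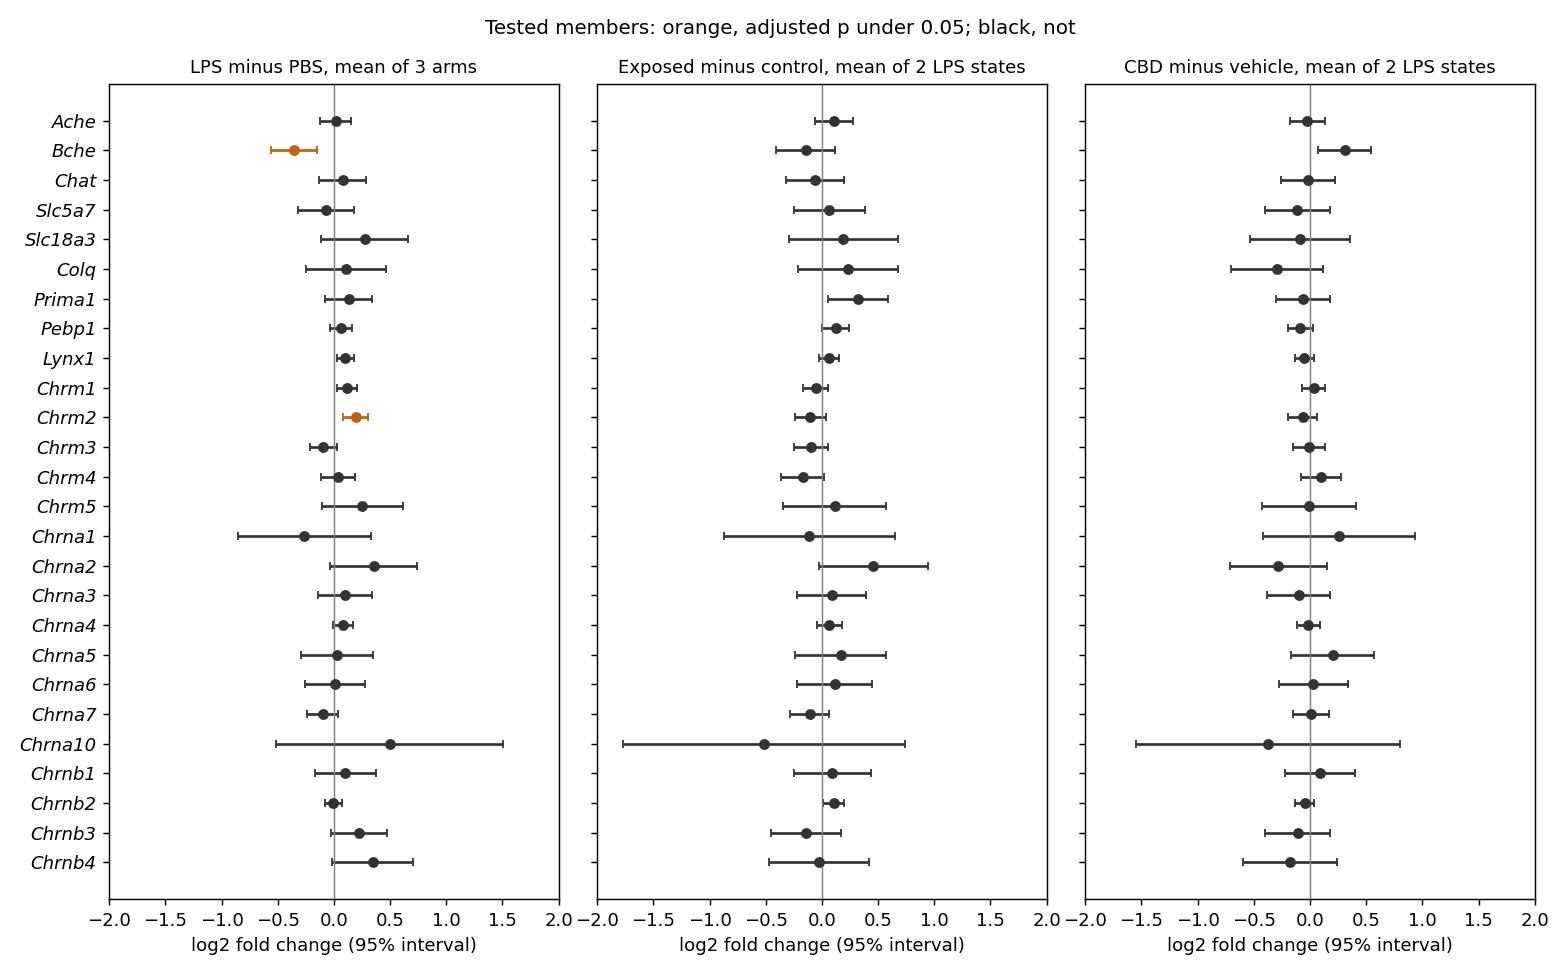
Points are log2 fold changes of the 26 tested members and bars their 95% intervals, for LPS minus PBS as the mean of 3 arms (left), exposure minus control (middle) and CBD minus vehicle (right), each as the mean of 2 LPS states. Bche and Chrm2 in the left panel, in orange, are the members with an adjusted p under 0.05.

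The second comparison asked how the members responded to LPS. Averaged over the 3 arms, 2 of 26 tested members passed the threshold, where 3.52% of all genes did (2.49% higher and 1.03% lower): Chrm2, the Gi-coupled muscarinic receptor that serves as a presynaptic autoreceptor on cholinergic terminals, rose by 14.4%, and Bche fell by 21.95%. A count of 2 is too small to set against that background, and nothing is read from it about the list. The median log2 difference of the members was 0.09, against -0.01 for all genes, and 4 members had an unadjusted p under 0.05 (17.8% of all genes). After Chrm2 and Bche, Lynx1 had the smallest p (log2 difference 0.10, edgeR adjusted p = 0.0972). Ache changed by 1.16% with a 95% interval from -7.93% to 11.2%, Chat by 5.47% (-8.56% to 21.6%) and Slc5a7 by -4.79% (-20.0% to 13.4%).

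Bche (ENSMUSG00000027792, chr3:73635808-73708415, minus strand, GRCm38) was at 8.60, 9.68 and 5.12 CPM in CtrlVeh and at 6.14, 5.57 and 5.27 CPM in CtrlVehLPS. It was at 6.34, 7.33, 7.09 and 8.22 CPM in GWVeh and at 4.76, 4.25, 5.93 and 4.96 CPM in GWVehLPS. In CBD-treated mice it was at 7.20, 6.19, 8.58 and 8.55 CPM in GWCBD30 and at 5.75, 8.16, 6.88 and 8.28 CPM in GWCBD30LPS. All 4 GWVehLPS libraries were below all 4 GWVeh libraries, and in 5.87% of all genes these groups did not overlap in either direction. The control arm overlapped through CtrlVeh replicate 3, and the CBD groups overlapped broadly. Over the 3 arms the log2 difference was -0.36 ± 0.10 (SE), with a 95% interval for the change from -32.3% to -10.0% (edgeR, adjusted p = 0.0396). By arm it was -0.45 in controls (adjusted p = 0.335; -0.25 without CtrlVeh replicate 2, -0.69 without CtrlVeh replicate 3), -0.55 ± 0.17 in exposed vehicle mice (adjusted p = 0.129) and -0.08 in exposed CBD mice (adjusted p = 0.931), none of which passed alone.

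Chrm2 (ENSMUSG00000045613, chr6:36388084-36528414, plus strand, GRCm38) was at 24.3, 26.4 and 22.4 CPM in CtrlVeh and at 32.6, 30.5 and 25.8 CPM in CtrlVehLPS. It was at 22.3, 25.1, 24.2 and 24.8 CPM in GWVeh and 24.2, 28.2, 26.7 and 25.3 CPM in GWVehLPS. In GWCBD30 it was at 26.1, 20.2, 23.0 and 20.6 CPM and in GWCBD30LPS at 25.1, 27.6, 24.0 and 25.3 CPM. The mean was higher with LPS in each arm, and every arm overlapped. Over the 3 arms the log2 difference was 0.19 ± 0.05, with a 95% interval for the change from 6.04% to 23.4% (edgeR, adjusted p = 0.0348). By arm it was 0.29 ± 0.10 in controls (adjusted p = 0.216; 0.21 without CtrlVehLPS replicate 1), 0.12 in exposed vehicle mice (adjusted p = 0.721) and 0.18 in exposed CBD mice (adjusted p = 0.609).

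Both calls sat close to the threshold. When each library was left out in turn, Bche passed in 8 of 22 fits, with log2 differences from -0.44 to -0.29 and adjusted p from 0.00544 to 0.141. It passed without CtrlVeh replicate 3, CtrlVehLPS replicate 1, GWVeh replicate 1, GWVehLPS replicate 3, GWCBD30 replicates 1 and 2, and GWCBD30LPS replicates 2 and 4, and it did not pass without any 1 of the others. Chrm2 passed in 10 of 22 such fits, with log2 differences from 0.17 to 0.22 and adjusted p from 0.0142 to 0.0888. It passed without CtrlVeh replicate 2, CtrlVehLPS replicate 3, GWVeh replicate 2 or 4, GWVehLPS replicate 1, 3 or 4, GWCBD30 replicate 1 or 3, or GWCBD30LPS replicate 3. Among the fits in which Chrm2 did not pass was that without CtrlVehLPS replicate 1, the library that stood apart (log2 difference 0.17, adjusted p = 0.0720). Within the exposed arms alone neither passed (Bche -0.31, adjusted p = 0.138, and Chrm2 0.14, adjusted p = 0.259).

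Sums of microglial and regional markers are given beside these values. The microglial sums were higher with LPS, without overlap, in every arm. The olfactory bulb sums overlapped between LPS and PBS in exposed vehicle mice, and the cerebellar sums overlapped in both exposed arms. The 7 microglial markers, all detected, summed to 197 to 218 CPM in CtrlVeh and 338 to 357 CPM in CtrlVehLPS, to 199 to 235 CPM in GWVeh and 329 to 407 CPM in GWVehLPS, and to 201 to 247 CPM in GWCBD30 and 250.03 to 288 CPM in GWCBD30LPS. The 13 olfactory bulb markers summed to 225 to 242 CPM in CtrlVeh, where S100a5 was at 0, and to 320 to 430 CPM in CtrlVehLPS. In the exposed arms they summed to 252 to 280 CPM in GWVeh, 248 to 330 CPM in GWVehLPS, 233 to 256 CPM in GWCBD30 and 268 to 314 CPM in GWCBD30LPS. The 14 cerebellar markers summed to 999 CPM in CtrlVehLPS replicate 1, to 2669 and 2755 CPM in the other CtrlVehLPS libraries and to 2249 CPM or more in every library of the other groups. With the scores of olfactory bulb and cerebellar markers added to the model, Bche differed by -0.47 (adjusted p = 0.0692) and Chrm2 by 0.13 (adjusted p = 0.440). The part of the microglial markers in either result was not tested.

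The promoters of both genes, with that of Ache as the other cholinesterase, are shown because these are the members the comparisons turn on. They are the 250 bases before the RefSeq start on GRCm38.p6, read 5′ to 3′ in the direction of the gene, with matches to a GC box (GGGCGG) or a CCAAT box (CCAAT) on either strand in capitals.
Bche, chr3:73708416-73708665, minus strand: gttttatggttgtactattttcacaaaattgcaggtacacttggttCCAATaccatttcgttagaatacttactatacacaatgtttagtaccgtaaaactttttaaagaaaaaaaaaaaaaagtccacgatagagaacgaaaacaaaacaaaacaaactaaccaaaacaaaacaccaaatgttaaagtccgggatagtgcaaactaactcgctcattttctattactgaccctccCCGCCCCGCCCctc
Ache, chr5:137288004-137288253, plus strand: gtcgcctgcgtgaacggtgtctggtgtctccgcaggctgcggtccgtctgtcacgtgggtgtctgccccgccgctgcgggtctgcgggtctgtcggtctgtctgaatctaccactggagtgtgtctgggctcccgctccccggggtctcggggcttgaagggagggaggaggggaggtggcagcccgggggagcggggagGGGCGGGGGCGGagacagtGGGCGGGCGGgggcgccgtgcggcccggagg
Chrm2, chr6:36387834-36388083, plus strand: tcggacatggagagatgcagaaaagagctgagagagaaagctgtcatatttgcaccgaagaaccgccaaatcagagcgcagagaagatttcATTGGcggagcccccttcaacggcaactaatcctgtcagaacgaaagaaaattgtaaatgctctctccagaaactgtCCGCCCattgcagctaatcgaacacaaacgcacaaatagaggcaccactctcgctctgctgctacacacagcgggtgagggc
The Bche window held 2 overlapping GC boxes at its downstream end and 1 CCAAT box, at a GC content of 35.6%. That of Ache held 4 GC boxes, adjacent or overlapping, and no CCAAT box, at a GC content of 73.6%. Chrm2 had 1 of each, at 50%. The Ache window lies inside the GENCODE M21 span of that gene (chr5:137287519-137294466), whereas the windows of Bche and Chrm2 directly precede theirs. The median GC content of all 32851 promoters of this length was 52.4%, and 32.7% of them held a GC box and 33.8% a CCAAT box. Of the 23 members with a promoter in the RefSeq table, each taken by its first listed promoter, 11 held a GC box and 5 a CCAAT box. The shares above are over all listed promoters, not 1 per gene, so they are not counted alike. These matches are descriptions of letters only.

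**Figure D3:**
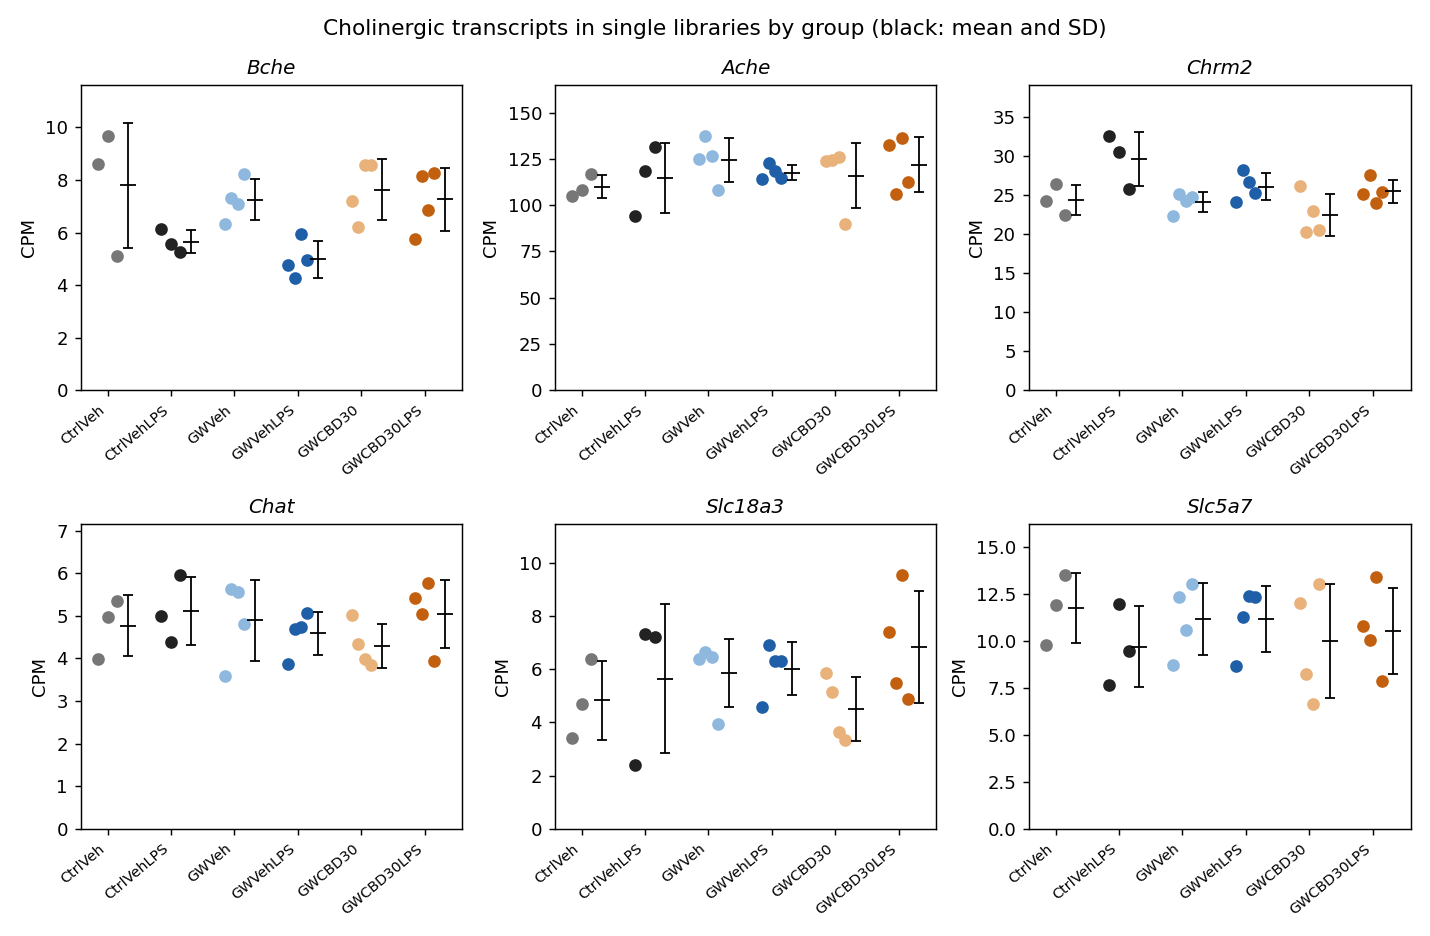
Points are single libraries of the 6 groups in CPM, for Bche, Ache, Chrm2, Chat, Slc18a3 and Slc5a7, with the mean and SD of each group in black on axes that start at 0. In Bche the 4 GWVehLPS libraries, at 4.25 to 5.93 CPM, lie below the 4 GWVeh libraries, at 6.34 to 8.22 CPM. The other 5 genes overlap between the LPS and PBS groups of the same arm, in every arm.

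In control mice alone, LPS moved no member past the threshold in edgeR or DESeq2, where 0.494% of all genes passed in edgeR, and 6 of 26 had an unadjusted p under 0.05 (12.2% of all genes). The groups of 6 members did not overlap, against 17.3% of all genes, and these were Chrm1, Chrm5, Chrna2, Chrna4, Chrna10 and Chrnb4. Chrm1, the main Gq-coupled muscarinic receptor of cortex and hippocampus, was at 119.8, 108 and 108 CPM in CtrlVeh and at 153, 122 and 125 CPM in CtrlVehLPS (log2 difference 0.26 ± 0.08, adjusted p = 0.167). The highest of these, at 153 CPM, was CtrlVehLPS replicate 1, and without it the log2 difference was 0.14 (adjusted p = 0.4998). With the scores of olfactory bulb and cerebellar markers added to the model it was 0.13 (adjusted p = 0.793). Chrna10 was at 0.114, 0.138 and 0.194 CPM in CtrlVeh, from 2 to 5 counts, and at 0.563 to 1.05 CPM in CtrlVehLPS, from 10 to 28 counts (log2 difference 2.50 ± 0.88, adjusted p = 0.211). With those scores in the model its log2 difference was 0.59 (adjusted p = 0.945). In the exposed arms the same gene overlapped between LPS and PBS.

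In exposed vehicle mice 0 members passed in edgeR or DESeq2, where 0.939% of all genes passed in edgeR, and 3 had an unadjusted p under 0.05 (10.4% of all genes). Beside Bche, the groups of Chrnb1 did not overlap. That subunit, of the muscle receptor but also transcribed in brain here, was at 3.03, 1.61, 2.82 and 2.06 CPM in GWVeh and at 3.81, 4.10, 3.17 and 3.10 CPM in GWVehLPS (log2 difference 0.58 ± 0.22, adjusted p = 0.282). Chrm3, a Gq-coupled muscarinic receptor, differed by -0.21 ± 0.10 (adjusted p = 0.434). The responses of Chrnb1 in exposed and control mice differed by 0.95 ± 0.34 on the log2 scale (adjusted p = 0.435), those of Chrna10 by -3.21 ± 1.18 (adjusted p = 0.460) and those of Chrm1 by -0.26 ± 0.11 (adjusted p = 0.518). Without CtrlVehLPS replicate 1 the difference for Chrm1 was -0.15 (adjusted p = 0.818), and with the marker scores added it was -0.11 (adjusted p = 0.927). No member passed this test of the difference in either tool, nor did any gene in edgeR (0% of all genes), and 4 of 26 members had an unadjusted p under 0.05 (8.43% of all genes). The response of Ache differed by -0.14 ± 0.16 (adjusted p = 0.860) and that of Bche by -0.10 ± 0.26 (adjusted p = 0.949).

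In exposed CBD mice 0 members passed for LPS in edgeR or DESeq2, where 0.00499% of all genes passed in edgeR, and 3 had an unadjusted p under 0.05 (8.22% of all genes). Chrnb3, a subunit of nicotinic receptors on midbrain dopamine neurons, was at 2.02, 1.62, 2.71 and 1.92 CPM in GWCBD30 and at 2.86, 3.47, 3.86 and 3.00 CPM in GWCBD30LPS. These groups did not overlap, as in 6.24% of all genes, and the log2 difference was 0.67 ± 0.20 (adjusted p = 0.377). Lynx1 (0.14 ± 0.06, adjusted p = 0.524) and Chrna7 (-0.25 ± 0.11, adjusted p = 0.545) followed.

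The third comparison asked whether CBD altered the members in exposed mice. Without LPS 0 members passed in edgeR or DESeq2 (0% of all genes in edgeR), and 1 had an unadjusted p under 0.05 (6.43% of all genes). The smallest p were those of Chrnb3 (log2 difference -0.51 ± 0.21, adjusted p = 0.752), Chrnb2 (-0.10, adjusted p = 0.770) and Chrna4 (-0.12, adjusted p = 0.770). The groups of 0 members failed to overlap, against 3.54% of all genes. Under LPS 0 members passed in either tool, where 0.24% of all genes passed in edgeR, and 2 had an unadjusted p under 0.05 (7.1% of all genes). Bche was at 4.25 to 5.93 CPM in GWVehLPS and at 5.75 to 8.28 CPM in GWCBD30LPS, with GWCBD30LPS replicate 1 inside the range of the vehicle group. Its log2 difference was 0.54 ± 0.17, a change of 45.4% with a 95% interval from 14.9% to 84.1% (adjusted p = 0.274).

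Chrm4, the Gi-coupled muscarinic receptor of striatal projection neurons, differed by 0.28 ± 0.12 under LPS with CBD (adjusted p = 0.613) and Chrnb3 by 0.29 ± 0.20 (adjusted p = 0.847). Chrm5, the muscarinic receptor of midbrain dopamine neurons, was the member whose groups did not overlap, at 1.46 to 1.71 CPM in GWVehLPS and 1.11 to 1.40 CPM in GWCBD30LPS, and in 4.27% of all genes these groups did not overlap. Over both LPS states CBD gave 0 members past the threshold in edgeR or DESeq2 (0% of all genes in edgeR), and 1 of 26 had an unadjusted p under 0.05 (8.35% of all genes). Bche differed by 0.31 ± 0.12 (adjusted p = 0.482), Pebp1 by -0.09 ± 0.05 (adjusted p = 0.706) and Colq by -0.29 ± 0.20 (adjusted p = 0.728). Ache changed by -1.56% with a 95% interval from -11.7% to 9.79%.

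The LPS response of CBD mice set against that of exposed vehicle mice gave 0 members past the threshold in either tool, where 0.0449% of all genes passed in edgeR, and 3 members had an unadjusted p under 0.05 (5.69% of all genes). Chrnb3 differed by 0.81 ± 0.29 on the log2 scale (adjusted p = 0.732), Chrm4 by 0.37 ± 0.17 (adjusted p = 0.850), Chrna4 by 0.22 ± 0.10 (adjusted p = 0.850) and Bche by 0.47 (adjusted p = 0.876). The difference between the LPS responses of Bche in these arms did not pass the test. These comparisons share the GWVeh and GWVehLPS libraries with the exposure comparisons.

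Precision set what could be seen. Over the 3 LPS arms the 95% interval lay within a 1.5-fold change in either direction for 20 of 26 members, and within a 2-fold change for 25. For exposure and for CBD over both LPS states the counts were 21 and 25 in each. The interval of Chrna10, a gene with 149 counts in all, reached beyond the 2-fold bounds in all 3. The interval of Chrnb2 for exposure, one of the narrower ones, ran from 0.648% to 14.7%.

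Chat, Slc5a7 and Slc18a3 overlapped between LPS and PBS in every arm. Chat was at 4.77 ± 0.709 CPM (SD, n = 3) in CtrlVeh, 5.12 ± 0.798 (n = 3) in CtrlVehLPS, 4.89 ± 0.949 (n = 4) in GWVeh, 4.59 ± 0.504 (n = 4) in GWVehLPS, 4.30 ± 0.520 (n = 4) in GWCBD30 and 5.04 ± 0.791 (n = 4) in GWCBD30LPS. Slc5a7 ranged over the 22 libraries from 6.65 to 13.5 CPM and Slc18a3 from 2.40 to 9.55 CPM, the lowest Slc18a3 value being that of CtrlVehLPS replicate 1. That library was also the lowest of all for Colq, at 0.813 CPM, and for Prima1, at 4.29 CPM, and the highest for Chrm1, Chrm2, Chrm3 and Chrm4.

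Several members lie next to each other in the genome. The single exon of Slc18a3 (chr14:32462438-32464850) lies inside the span of Chat (chr14:32408203-32465989) on the same strand, with no shared exon bases. Chrna5, Chrna3 and Chrnb4 form a cluster of 67.9 kb on chromosome 9 (chr9:54980880-55048779), and Chrnb3 and Chrna6 lie within 45.2 kb on chromosome 8 (chr8:27368711-27413944). To see whether such genes and their known sites of expression varied together between mice, 9 pairs were correlated over 22 libraries as deviations from group means, with permutation tests within groups.

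No pair passed Benjamini-Hochberg adjustment over the 9 pairs. The strongest over the 22 libraries was Chrm4 with the score of 10 striatal projection neuron markers (Pearson r = 0.645, permutation p = 0.0210, adjusted p = 0.0716, and Spearman rho = 0.617, permutation p = 0.0224, adjusted p = 0.0673), with r = 0.533 without the 2 libraries farthest from the median of Chrm4. Without CtrlVehLPS replicate 1 this pair gave r = 0.561 and rho = 0.513 (permutation p = 0.0597 and 0.0670, adjusted p = 0.0895 and 0.121). The highest r was then that of Chat with Slc18a3, at 0.608. Chrnb4 with 8 medial habenula markers gave r = 0.591 and rho = 0.542 (permutation p = 0.0318 and 0.0421, adjusted p = 0.0716 and 0.0948), and r = 0.519 without the 2 farthest libraries. For Chrna3 with Chrnb4, neighbours in the cluster, r was 0.547 and rho 0.552 (permutation p = 0.0229 and 0.0224, adjusted p = 0.0716 and 0.0673), and r was 0.427 without the 2 farthest libraries.

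Chat with Slc18a3 gave r = 0.472 and rho = 0.599 (permutation p = 0.0579 and 0.0160, adjusted p = 0.0962 and 0.0673) and r = 0.559 without the 2 farthest libraries. Without CtrlVehLPS replicate 1 the adjusted permutation p of that rho was 0.0446. Chat with Slc5a7 gave r = 0.518 and rho = 0.468 (permutation p = 0.0260 and 0.0609, adjusted p = 0.0716 and 0.110), falling to r = 0.361 without the 2 farthest libraries. Chrna4 with Chrnb2, partners in 1 receptor, gave r = 0.479 and rho = 0.420 (permutation p = 0.0641 and 0.0960, adjusted p = 0.0962 and 0.142), and r = 0.296 without the 2 farthest libraries. Chrna6 and Chrnb3, neighbours and partners in dopamine neurons, gave r = -0.0117 and rho = 0.0164 (adjusted permutation p = 0.967 and 0.952). Chrna6 with 8 midbrain dopamine neuron markers gave r = 0.447 and rho = 0.394 (adjusted permutation p = 0.129 and 0.156), and Chat with 16 brainstem and spinal markers gave r = 0.185 and rho = 0.405 (adjusted permutation p = 0.549 and 0.142).

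**Figure D4:**
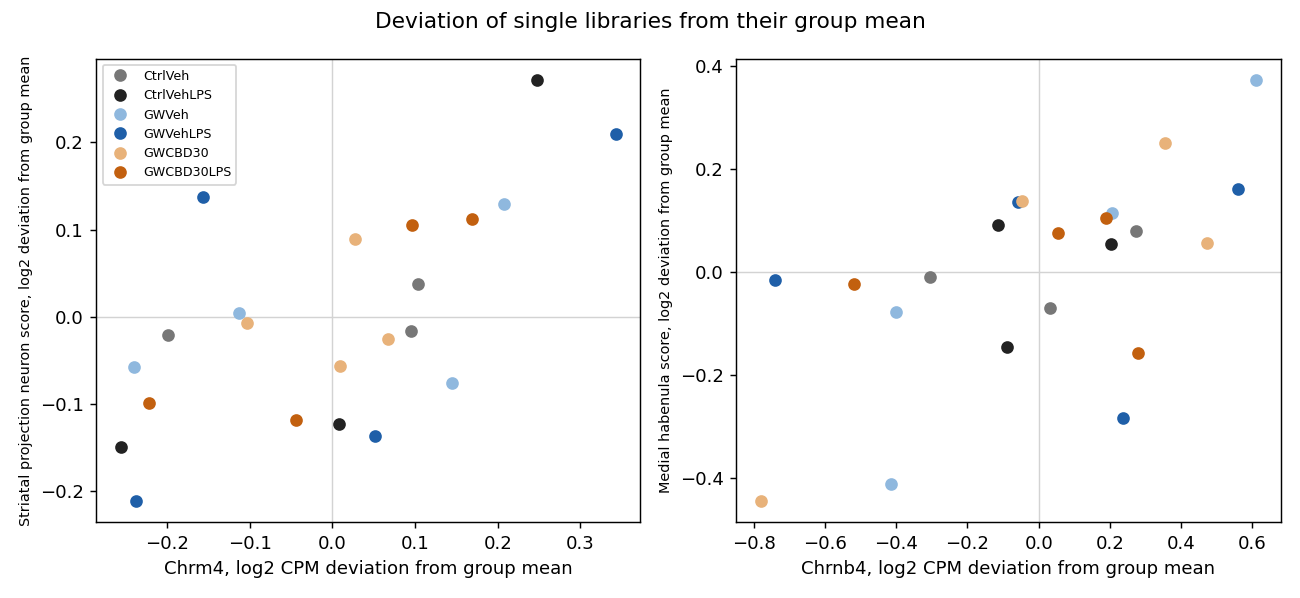
Points are the 22 libraries coloured by group, as log2 deviations from their group means: the striatal projection neuron score against Chrm4 (left, r = 0.645) and the medial habenula score against Chrnb4 (right, r = 0.591). In both panels libraries farther right lie mostly higher, and neither relation passed adjustment over the 9 pairs.

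Other genes of the pathway were counted by role in all 12 comparisons. Of 16 genes of choline and acetyl-CoA supply, all tested, 0 passed in any. Of 12 tested genes of cholinergic neuron identity and trophic support, of 13 listed, 0 passed. Of 16 tested genes of receptor assembly, of 18 listed, 1 passed, of 20 muscarinic signalling genes 1, and of 4 tested esterases, of 18 listed, 1, and all were higher with LPS over the 3 arms, as were 2.49% of all genes (3.52% passed in either direction). These were Ly6e, Gnai2 and Pon2.

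Ly6e, an interferon-inducible surface protein of the Ly6 family to which Lynx1 belongs, was at 128, 123 and 128 CPM in CtrlVeh and at 168, 145 and 166 CPM in CtrlVehLPS. It was at 148, 131, 144 and 125 CPM in GWVeh and 172, 178, 157 and 183 CPM in GWVehLPS. In CBD mice it was at 129 to 134 CPM in GWCBD30 and at 141 to 145 CPM in GWCBD30LPS. LPS and PBS groups did not overlap in any arm, as in 17.3% of all genes in controls, 5.87% in exposed vehicle mice and 6.24% in exposed CBD mice. The log2 difference was 0.34 ± 0.07 in controls (adjusted p = 0.0169, kept in 1 of 6 fits that leave out a library), 0.33 ± 0.06 in exposed vehicle mice (adjusted p = 0.00167, kept in 8 of 8) and 0.26 ± 0.04 over the 3 arms (adjusted p = 3.24e-05, kept in 22 of 22). With CBD under LPS it was lower by a log2 difference of -0.27 ± 0.06 (adjusted p = 0.0395, kept in 1 of 8). Pon2, an intracellular lactonase, rose by 0.27 ± 0.05 over the 3 arms (adjusted p = 0.000546, kept in 22 of 22), and Gnai2, a subunit of the Gi proteins that Chrm2 and Chrm4 use, by 0.15 ± 0.04 (adjusted p = 0.0314, kept in 14 of 22). The microglial marker sums given above moved in the same groups, and their part in these 3 genes was not tested.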

How the data were processed

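Stranded poly(A) libraries from RNA of integrity number 8.5 or more were sequenced as 150-bp paired ends and aligned to GRCm38/mm10, per the labels' protocols. The authors deposited 1 table of raw whole-number read counts per gene, with no normalization. The aligner, the counter, its strand setting and the annotation were not given in the sources used here. Each of the 22 columns matched 1 sample, and 0 other columns were present. No 2 libraries of a group agreed within sampling noise (chi-square per gene 3.92 to 20.9 over 30 pairs).

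The count model was that of edgeR 4.0.16, run in R 4.3.3 (filterByExpr, TMM scaling, robust quasi-likelihood fit of 6 group means, 16 residual degrees of freedom, biological coefficient of variation 0.103). From it 12 contrasts were tested, two-sided, with adjustment over 20026 genes, and the procedure was tested on simulated data. The alternatives were RLE or upper-quartile scaling, no filter, at least 1 CPM in 3 libraries, DESeq2 1.42.0, fits to the contrast's groups, a replicate block, regional scores as covariates, an adjusted p of 0.1 and leaving out libraries. The exposed arms alone were added after seeing the data. Correlations used log2 CPM (prior count 2) and 100000 permutations within groups. Exon lengths and positions are from GENCODE M21, and promoters are from RefSeq.

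Per contrast, members past the threshold and the 3 with the smallest p are named, with Ache and Bche for exposure, and other members by whether their groups overlapped. Some values outside this rule are also given, such as those of Ache, Chat and Slc5a7 for LPS. The members and lists were chosen with earlier results of these data known. Mice are taken as replicates as the labels number them, and counting intervals and floors cover counting error only.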

Additional observations from a re-analysis of the deposited data

Results flagged for a closer look

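Of 111 sets of 4 libraries (1 member in 1 group), 10 held a library far from the other 3 by Dixon's test, which by chance marks about 1 in 20, and groups of 3 were not tested. Ache in GWCBD30 replicate 4 was at 89.7 CPM, against 124 to 126 CPM in the other 3. Prima1, the membrane anchor of Ache, was at 4.51 CPM in the same library, against 6.33 to 6.70 CPM. Regional markers of that library also differed from the other 3. Its serotonin neuron sum was 3.64 CPM, against 20.2 to 30.97 CPM, and its brainstem and spinal sum 57.9 CPM, against 66.9 to 89.9 CPM. Its striatal projection neuron sum was higher, at 853 CPM against 786 to 817 CPM. The part of regional content in the Ache and Prima1 values was not tested. Slc18a3 in GWVeh replicate 4 was at 3.94 CPM (6.38 to 6.63 CPM in the others), and Colq in GWVeh replicate 2 was at 3.47 CPM (1.78 to 2.02 CPM). Chrm3 in GWVehLPS replicate 1 was at 46.3 CPM (34.9 to 36.8 CPM), and Chrm5 in GWCBD30LPS replicate 1 was at 1.40 CPM (1.11 to 1.146 CPM). Chrnb1 in GWCBD30 replicate 3 was at 2.02 CPM (3.24 to 3.45 CPM). The other 3 were single counts in groups otherwise at 0: Chrna9 at 0.0414 CPM in GWVeh replicate 3 and at 0.0325 CPM in GWCBD30LPS replicate 1, and Chrng at 0.0394 CPM in GWVehLPS replicate 2.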

How the results depend on the processing

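For LPS over the 3 arms, where 2 members passed, the count was 2 in 5 of 9 settings that keep all libraries or drop an arm, and 2 in 3, 1 in 13 and 0 in 6 of 22 fits that leave out a library. It was 0 with scores of olfactory bulb and cerebellar markers as covariates and 0 in the exposed arms alone (fewer samples). With DESeq2 or an adjusted p of 0.1 it was 3, and Lynx1 was the member added in both. Without GWVeh replicate 1 the 2 were Bche and Lynx1 (0.12, adjusted p = 0.0420). For LPS in exposed vehicle mice it was 1 rather than 0 without a filter on low counts (Bche, -0.54, adjusted p = 0.0483). In all other comparisons it was 0 in every setting run. The fit to the contrast's groups alone equals the main fit for LPS over the 3 arms and was not run there.

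Directions that turned were all of log2 differences that had not passed. With the covariates, exposure under LPS gave -0.116 for Ache and 0.00689 for Bche. Leaving out libraries gave -0.0892 (without CtrlVehLPS replicate 1) to 0.145 for Ache under exposure with LPS, -0.337 to 0.0967 (without CtrlVeh replicate 2) for Bche under exposure without LPS, -0.166 to 0.0234 (without GWCBD30LPS replicate 1) for Bche with LPS in CBD mice, and -0.0721 to 0.00769 (without GWVehLPS replicate 2) for Chrm2 with CBD under LPS. Of values that had not passed and kept their sign, some moved by over 1.5 times: exposure over both LPS states gave 0.04 for Ache without CtrlVehLPS replicate 1 and -0.05 for Bche without CtrlVeh replicate 2, and without GWVehLPS replicate 2 it gave 0.07 for Pebp1, whose CBD difference became -0.03. The CBD difference of Colq was -0.17 without GWVeh replicate 2, and that of Chrnb3 under LPS was 0.17 without GWVehLPS replicate 2. Without GWCBD30 replicate 4, CBD without LPS gave -0.07 for both Chrna4 and Chrnb2. Chrm3 with LPS in exposed vehicle mice was -0.32 without GWVehLPS replicate 1 and -0.13 with the covariates. The correlation of Chrna6 with Chrnb3 was 0.0217 without CtrlVehLPS replicate 1. The causes were not tested.

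Counts over all genes moved more, from 99 to between 20 and 357 for LPS in controls, from 188 to between 125 and 359 in exposed vehicle mice, from 705 to between 325 and 1248 over the 3 arms and from 48 to between 22 and 138 for CBD under LPS. Without the filter on low counts, exposure gave 36 genes without LPS, 118 under LPS and 44 over both states, CBD over both states gave 76, LPS in CBD mice gave 64, and the 2 differences between responses gave 82 and 37, with 0 to 24 when libraries were left out.

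Same-numbered libraries of different groups had correlations of their deviations from -0.0647 to 0.133, over 0.1 in 1 pair only, so the numbers were not taken as pairs. In the replicate block, Chrm2 differed by 0.19 (adjusted p = 0.0357) and Bche by -0.35 (adjusted p = 0.0435) for LPS over the 3 arms, and 2 members passed as before. Depth limits Chrna1, Chrna10 and the 4 members left untested.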
